A study of Mus musculus with 8 samples.

Results

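The JAK-STAT signalling and feedback genes described here are Jak2, Stat3, Stat5a, Stat5b, Epor, Socs1, Socs2, Socs3, Cish and Pim1. They were selected by symbol from the platform annotation, and all 10 were measured, by 12 probe sets, among 19938 genes. Socs2 and Socs3 each had 2 probe sets, and the brighter one stands for the gene. RNA came from flow-sorted bone marrow cells of C57BL/6J mice, with 8 arrays for 8 separate preparations. The transgenic (TG) mice carry the genotype label ∆Hmga2, in a series titled as a study of HMGA2 overexpression, and the wild-type (WT) mice carry the label wildtype. The sort separated KLS cells, which carry c-Kit and Sca-1 but no lineage markers and hold the stem cells, from MEP cells, the precursors of megakaryocytes and red cells. WT KLS, TG KLS, WT MEP and TG MEP cells were each represented by 2 arrays, and each preparation pooled 4 or 6 mice. No treatment is labelled, and the sources used here do not give the age of the mice, the promoter of the transgene or the number of founder lines.

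Cytokine receptors such as the erythropoietin receptor have no kinase of their own and signal through bound JAK kinases, which phosphorylate STAT transcription factors. Phosphorylated STAT proteins pair, enter the nucleus and switch on target genes, among them Cish and the SOCS genes, whose products bind the receptor or the kinase and dampen the signal. Pim1 encodes a serine-threonine kinase that is another transcriptional target of STAT factors in blood cells. In erythroid progenitors the route from Epor through Jak2 to Stat5a and Stat5b supports survival. Because STAT proteins are controlled by phosphorylation, their transcript levels are not a measure of signalling.

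The feedback genes are read out through their promoters, so those with a STAT-type motif are shown. STAT dimers bind variants of the 9-base motif TTCNNNGAA, which reads the same on both strands and was searched for with any bases at its 3 middle positions. RefSeq windows of GRCm38.p6, from 250 bases before to 50 bases after an annotated start, were held for 9 of the 10 genes (12 windows), and Socs2 had none. The motif was found in the windows of Cish and Socs3, that is in 2 of 12 windows, against 8.30% of all 32851 windows of the same length. It occurred at bases 251 to 259 and 262 to 270 of the Cish window (chr9:107296409-107296708, plus strand) and at bases 97 to 105 of the Socs3 window (chr11:117969317-117969616, minus strand), counted from the window's 5′ end, and the copies did not overlap. A match describes the letters only and is not evidence of binding. Both windows are written 5′ to 3′ with the motif in capitals.
Cish: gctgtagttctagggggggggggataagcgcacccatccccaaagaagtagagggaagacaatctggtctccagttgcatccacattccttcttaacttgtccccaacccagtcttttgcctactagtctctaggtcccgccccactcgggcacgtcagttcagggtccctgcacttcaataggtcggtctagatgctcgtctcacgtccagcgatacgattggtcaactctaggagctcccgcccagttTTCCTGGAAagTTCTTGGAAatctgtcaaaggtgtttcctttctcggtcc
Socs3: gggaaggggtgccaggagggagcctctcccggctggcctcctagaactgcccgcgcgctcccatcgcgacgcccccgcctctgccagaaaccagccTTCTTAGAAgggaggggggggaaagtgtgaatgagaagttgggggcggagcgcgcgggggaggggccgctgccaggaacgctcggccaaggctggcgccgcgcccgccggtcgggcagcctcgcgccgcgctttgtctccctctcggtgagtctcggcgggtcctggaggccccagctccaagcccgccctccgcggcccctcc

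Values below are log2 probe set levels after quantile normalization, where 1 unit is a 2-fold difference, and each probe set is compared with itself only, since probe sets differ in brightness for the same amount of RNA. Group values are means ± SD of 2 arrays, and differences carry limma's standard error (SE). A gene was called when limma's p, adjusted by Benjamini-Hochberg over all 19938 genes, was under 0.05. Arrays give no read depth, and 2 arrays per group limit the precision.

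The sorted populations differed in stem cell and erythroid marker genes in the direction of their labels, while megakaryocyte markers were mixed. Cd34, a surface antigen of early progenitors, was higher in KLS cells by 2.97 ± 0.27 (SE; limma adjusted p = 0.00805). Of 14 measured stem and multipotent progenitor markers 6 were called higher there. Between these cell types 1.60% of all genes were called. Ly6a, which encodes Sca-1, was not analysed here. Of 14 measured erythroid markers 13 lay lower in KLS than in MEP cells, with a median difference of -0.32, and 2 were called. Of 8 measured megakaryocyte markers 5 lay higher in KLS than in MEP cells and 3 lower, with a median difference of 0.15. None of these was called. Markers of mature lineages were also higher in KLS than in MEP cells. This held for 22 of 22 granulocyte and monocyte markers, with a median difference of 1.16 and 9 called. It held for 18 of 20 lymphoid markers, with a median of 0.19 and 2 called. The purity of the sorted cells was not tested. Hmga2 itself lay higher in TG than in WT cells by 0.25 ± 0.11 over both cell types and was not called (limma adjusted p = 0.999), and whether its probe set reads the transgene is unknown here, so it is no check of the genotype labels. The WT MEP 1 array stood apart from the other MEP arrays. All 22 granulocyte and monocyte markers and 17 of 20 lymphoid markers were at their highest MEP level on it. So were 10 of 14 stem, 4 of 14 erythroid and 3 of 8 megakaryocyte markers. The share over all genes was not counted. The mean log2 level of the lymphoid markers was 7.99 on WT MEP 1, against 6.33 to 6.51 for the rest of the MEP samples and 7.02 to 7.48 in KLS cells. Values without that array are therefore set beside the main results for MEP cells.

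None of the 10 genes was called in any of the comparisons by limma. Between KLS and MEP cells 0 of 10 were called, where 1.60% of all genes were, and 3 of 10 had an unadjusted p under 0.05, where 14.3% of all genes did. For TG against WT the count was 0 of 10 in KLS cells, in MEP cells and over both, with 0.00% of all genes called in each. At an unadjusted p under 0.05 there were 0 of 10 in KLS cells (2.51% of all genes), 1 in MEP cells (3.71%) and 1 over both (3.26%), which was Pim1 each time. The genotype change did not differ between the cell types for any of them past the threshold (limma interaction, 0 of 10 called, 0.00% of all genes, with 0 of 10 and 2.27% at an unadjusted p under 0.05). The sizes behind these counts differ between the genes, and the widest spread of the 4 group means was that of Stat3 (1.08), followed by Pim1 (0.71) and Jak2 (0.48).

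**Figure D1:**
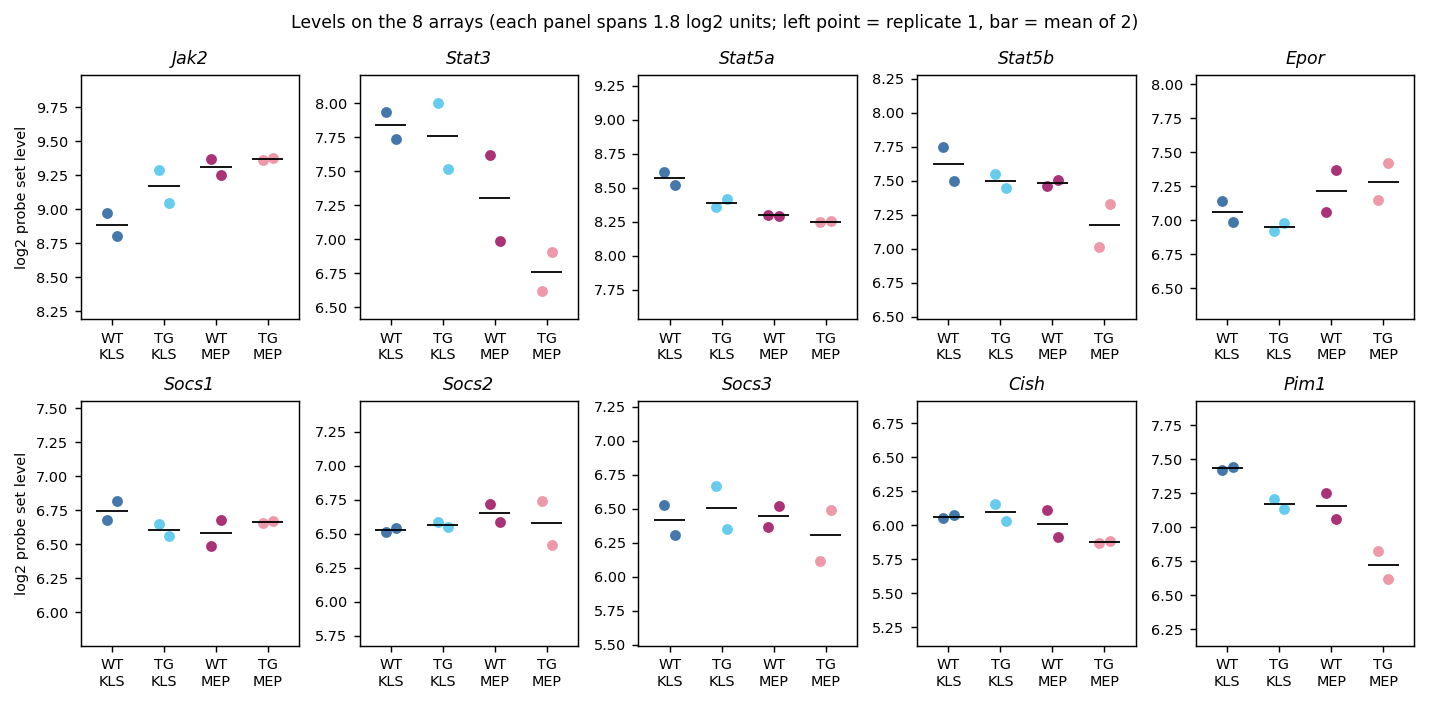
Log2 probe set level (vertical axis) of each of the 10 genes on the 8 arrays, by group, with the left point for replicate 1, the right point for replicate 2 and a bar at the mean of 2. Stat3 and Pim1 have their lowest group mean in TG MEP cells, at 6.76 and 6.72, while the 4 group means of Socs2 lie within 0.12 of each other.

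Epor encodes the erythropoietin receptor and is the one receptor among these genes. It was at 7.14 and 6.99 on the WT KLS arrays and at 6.92 and 6.98 on the TG KLS arrays. In MEP cells it was at 7.06 and 7.37 in WT and at 7.15 and 7.42 in TG. Its 4 MEP arrays reached higher than the KLS arrays, yet WT MEP 1 lay within the range of the WT KLS arrays. The KLS minus MEP difference was -0.24 ± 0.12 (SE, 95% interval -0.51 to 0.023), from 7.01 ± 0.09 in KLS to 7.25 ± 0.17 in MEP cells (SD, n = 4 each), and was not called by limma (adjusted p = 0.407). Without WT MEP 1 it was -0.32 (adjusted p = 0.242). By genotype Epor differed by -0.11 ± 0.17 in KLS and by 0.071 ± 0.17 in MEP cells, and the MEP value turned to -0.084 without WT MEP 1 and to -0.067 without TG MEP 2.

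Jak2 encodes the kinase bound by Epor and by several other cytokine receptors. Its levels were 8.97 and 8.80 in WT KLS, 9.29 and 9.05 in TG KLS, 9.37 and 9.25 in WT MEP and 9.36 and 9.38 in TG MEP cells. WT KLS was the lowest group, and the order from high to low was TG MEP, WT MEP, TG KLS and WT KLS. The KLS minus MEP difference was -0.31 ± 0.10 (SE, 95% interval -0.55 to -0.077) and was not called by limma (adjusted p = 0.189), and it was -0.28 without WT MEP 1. The TG arrays lay above the WT arrays in KLS cells, by 0.28 ± 0.15 (95% interval -0.054 to 0.61, limma adjusted p = 1.00). In MEP cells the genotypes overlapped, with a change of 0.058 ± 0.15, which was -0.019 with the values as deposited and -0.046 with each array centred on its median. The interaction, the KLS change less the MEP change, was 0.22 ± 0.21 and was not called.

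Stat3 transmits signals of the IL-6 and G-CSF receptor families. It was at 7.94 and 7.74 in WT KLS and at 8.005 and 7.51 in TG KLS cells. In MEP cells it was at 7.62 and 6.99 in WT and at 6.62 and 6.90 in TG. The KLS arrays were all higher than the MEP arrays except that WT MEP 1, at 7.62, lay above TG KLS 2, at 7.51. KLS cells averaged 7.80 ± 0.22 and MEP cells 7.03 ± 0.42 (SD, n = 4 each), a difference of 0.77 ± 0.17 (SE, 95% interval 0.38 to 1.16) that was not called by limma (adjusted p = 0.0672). Without WT MEP 1 the difference was 0.93 and was called (adjusted p = 0.0224), and with the replicate number as a block it was called at an adjusted p of 0.0432. Over the alternatives tried the adjusted p ran from 0.00491 to 0.232. The lowest of these came with the TG MEP replicate numbers crossed in the replicate block, a choice made after seeing the data. Among MEP arrays TG lay below WT without overlap, with a change of -0.54 ± 0.24 (95% interval -1.10 to 0.011, limma adjusted p = 1.00). Leaving out WT MEP 1 gave -0.22 and leaving out WT MEP 2 gave -0.86, and neither was called. The granulocyte and monocyte markers had a mean log2 level of 9.16 to 9.67 in KLS cells, 8.81 for WT MEP 1, 8.16 for WT MEP 2 and 7.49 to 7.66 in TG MEP cells. Their part in the Stat3 values was not tested, and in bulk arrays fewer cells of a type cannot be told apart from less RNA per cell. In KLS cells the genotypes overlapped, with a change of -0.079 ± 0.24.

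Stat5a and Stat5b are neighbouring genes with closely similar products that act downstream of Epor and Jak2. Probes of such a pair can share signal, so their values may not be fully separate measurements. Whether these probe sets share signal was not examined. Stat5a was at 8.62 and 8.52 in WT KLS, 8.36 and 8.42 in TG KLS, 8.30 and 8.29 in WT MEP and 8.24 and 8.25 in TG MEP cells. It was the 1 gene of the 10 whose KLS and MEP arrays did not overlap, where 9.04% of all genes had no overlap. The difference was 0.21 ± 0.092 (SE, 95% interval -0.0022 to 0.41) and was not called by limma (adjusted p = 0.358), with the same rounded value without WT MEP 1. TG arrays lay below WT arrays in both cell types, with changes of -0.18 ± 0.13 in KLS and -0.047 ± 0.13 in MEP cells (SE), neither of which was called. With each array centred on its median these differences came to -0.061 in KLS and -0.16 in MEP cells.

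Stat5b was at 7.75 and 7.50 in WT KLS, 7.55 and 7.45 in TG KLS, 7.46 and 7.50 in WT MEP and 7.01 and 7.33 in TG MEP cells. Both TG MEP arrays were below all other arrays, and the remaining groups overlapped. In MEP cells the TG minus WT difference was -0.31 ± 0.16 (SE, 95% interval -0.67 to 0.055, limma adjusted p = 1.00), and it was -0.47 without TG MEP 2, -0.15 without TG MEP 1 and -0.33 without WT MEP 1. The KLS minus MEP difference was 0.23 ± 0.11 (95% interval -0.023 to 0.49) and was not called by limma (adjusted p = 0.408), and it was 0.22 without WT MEP 1. Stat3, Stat5a, Stat5b and Pim1 shared one order of group means, WT KLS highest, then TG KLS, WT MEP and TG MEP. The order is a description, and the genotype steps in it were not called for any of these genes.

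The 4 inhibitors had small differences. Their levels lay near the array medians of the deposited values, 6.34 to 6.45 over all probe sets, with Cish below them. Without detection calls, flat values at such levels do not show stable expression. Cish, the first member of the SOCS family to be described as a cytokine-induced inhibitor, was at 6.05 and 6.07 in WT KLS and at 6.16 and 6.03 in TG KLS cells. In MEP cells it was at 6.11 and 5.91 in WT and at 5.87 and 5.89 in TG. The TG MEP arrays were the lowest, with a change of -0.13 ± 0.14 (SE) from WT MEP cells that was -0.033 without WT MEP 1. Cish was higher in KLS than in MEP cells by 0.13 ± 0.098 (95% interval -0.088 to 0.36), which was not called by limma (adjusted p = 0.655) and was 0.18 without WT MEP 1.

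Socs1, which binds and inhibits JAK kinases directly, was at 6.67 and 6.82 in WT KLS and at 6.64 and 6.56 in TG KLS cells. It was at 6.49 and 6.68 in WT MEP and at 6.66 and 6.67 in TG MEP cells. TG lay below WT in KLS cells without overlap, with a change of -0.15 ± 0.14 (SE), and within the WT range in MEP cells, with a change of 0.081 ± 0.14 that turned to -0.015 without WT MEP 1. Its KLS minus MEP difference was 0.049 ± 0.099 (95% interval -0.18 to 0.27), and 0.0014 without WT MEP 1.

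Socs2, a STAT5 target that restrains growth hormone signalling, was at 6.51 and 6.54 in WT KLS, 6.58 and 6.55 in TG KLS, 6.72 and 6.59 in WT MEP and 6.74 and 6.41 in TG MEP cells. Its KLS minus MEP difference of -0.068 ± 0.11 (95% interval -0.31 to 0.18) took the other sign, at 0.046, when both of its probe sets were averaged, and was -0.036 without WT MEP 1. The dimmer probe set (10394674) was at 6.35 on WT MEP 1 and at 5.33 to 5.59 on the other MEP arrays, and at 5.58 to 6.08 on the KLS arrays. The spread of that probe set was thus wider than that of the brighter one.

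Socs3, an inhibitor of the IL-6 and G-CSF receptor families, was at 6.53 and 6.31 in WT KLS, 6.67 and 6.35 in TG KLS, 6.37 and 6.52 in WT MEP and 6.12 and 6.49 in TG MEP cells. The replicate SD reached 0.27, in TG MEP cells, and all 4 groups overlapped. The KLS minus MEP difference was 0.090 ± 0.13 (SE, 95% interval -0.21 to 0.39), and 0.052 without WT MEP 1. The dimmer probe set (10383010) gave 0.20 ± 0.10 (limma adjusted p = 0.414), with 5.93 to 6.14 on the KLS and 5.74 to 5.93 on the MEP arrays.

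Pim1 was at 7.42 and 7.44 in WT KLS, 7.21 and 7.13 in TG KLS, 7.25 and 7.06 in WT MEP and 6.83 and 6.62 in TG MEP cells. WT KLS was above and TG MEP below all other arrays, and TG KLS and WT MEP overlapped between them. TG minus WT was -0.26 ± 0.14 in KLS cells (SE, 95% interval -0.59 to 0.068) and -0.43 ± 0.14 in MEP cells (-0.76 to -0.10). Over both cell types TG minus WT was -0.35 ± 0.10 (-0.58 to -0.11), which ranked 78 by p among 19938 genes (limma adjusted p = 0.999). It was negative with each of the 8 arrays left out, from -0.40 to -0.29, and it was called under none of the 19 alternatives tried (limma adjusted p from 0.389 to 1.00). In MEP cells it was -0.34 without WT MEP 1. KLS cells were higher than MEP cells by 0.36 ± 0.10 (95% interval 0.13 to 0.60), not called by limma (adjusted p = 0.128), and by 0.41 without WT MEP 1. The interaction was 0.17 ± 0.20, and 0.074 without WT MEP 1, so a difference in the genotype change between the cell types was not shown.

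**Figure D2:**
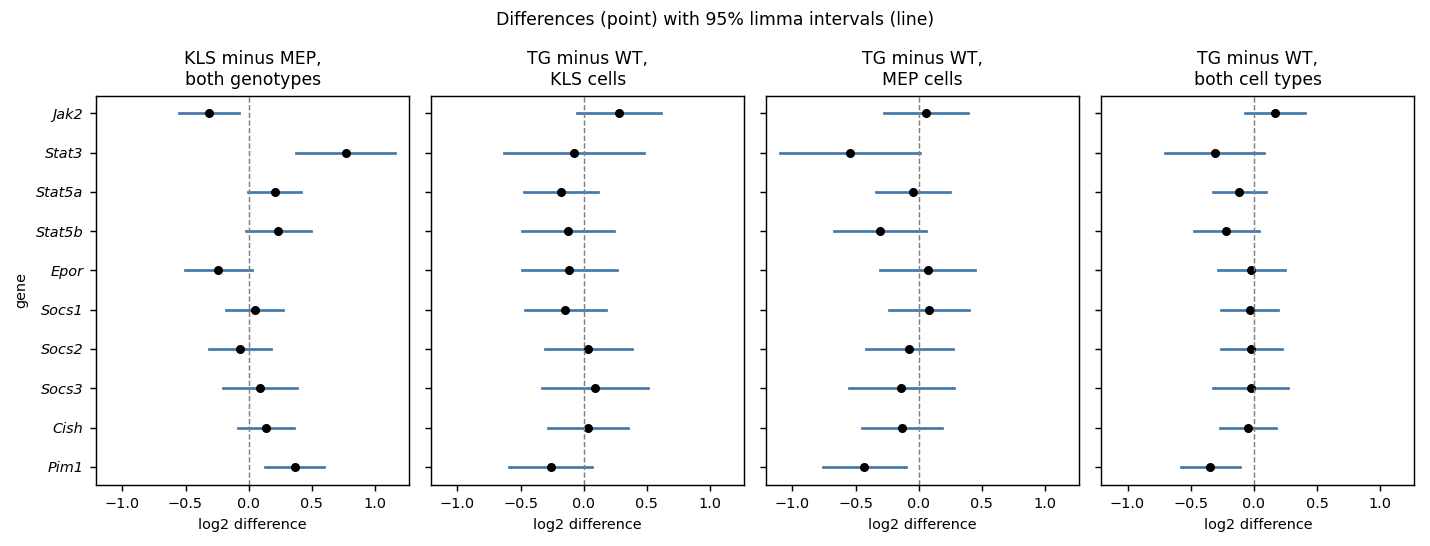
Log2 differences (horizontal axis, points) with limma's 95% intervals (lines) for the 10 genes (vertical axis), in 4 comparisons. Intervals that leave out 0 belong to Jak2, Stat3 and Pim1 between the cell types and to Pim1 by genotype in MEP cells and over both, and none of these genes was called after adjustment.

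As a set the 10 genes had a median difference of 0.11 between KLS and MEP cells, with 7 of 10 above 0, beside a median of 0.013 and 53.5% above 0 over all genes. By genotype the median was -0.096 in KLS cells (6 below 0, against 54.2% of all genes) and -0.10 in MEP cells (7 below 0, against 52.0%), with medians over all genes of -0.017 and -0.0078. With each array centred on its median 5 of 10 lay below 0 in KLS cells, and with the values as deposited 7 of 10 did. Averaged over both cell types 9 of 10 lay below 0 (54.0% of all genes), Jak2 being the exception, with a median of -0.041 beside -0.012 over all genes. TG and WT arrays did not overlap for 6 of 10 genes in KLS cells, where 29.0% of all genes did not, and for 5 of 10 in MEP cells, where the share was 30.2%. In KLS cells these were Jak2 and Socs2 with TG higher and Stat5a, Epor, Socs1 and Pim1 with TG lower, and in MEP cells Stat3, Stat5a, Stat5b, Cish and Pim1, all with TG lower (17.2% of all genes). Without WT MEP 1, 9 of 10 lay below 0 in MEP cells (61.0% of all genes) and 7 of 10 were lower without overlap (41.2% of all genes), with a median of -0.064 beside -0.044 over all genes, and 7 of 10 lay below 0 over both cell types (59.4%). Granulocyte and monocyte markers and lymphoid markers lay lower in TG than in WT MEP cells too. For the granulocyte and monocyte markers this held for 22 of 22, with a median of -0.88 and 19 not overlapping, and without WT MEP 1 for 21 of 22, with a median of -0.61. For the lymphoid markers it held for 18 of 20, with a median of -0.91, and without WT MEP 1 for 17 of 20, with a median of -0.11. Of the erythroid markers 7 of 14 lay below 0, of the megakaryocyte markers 5 of 8 and of the stem markers 10 of 14. Without WT MEP 1 these counts were 12 of 14, 6 of 8 and 5 of 14. The part of the markers in the values of the 10 genes was not tested. Stat5a and Pim1 were lower without overlap in both cell types, where 2.89% of all genes were. The values over both cell types are made from the same arrays as those within each.

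**Figure D3:**
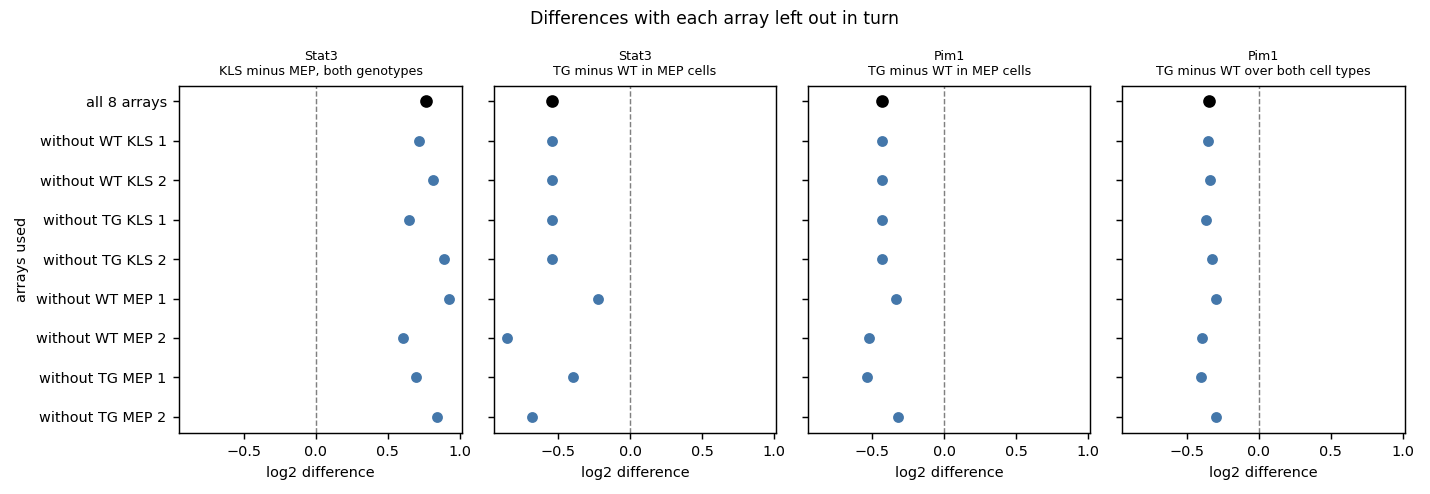
Log2 differences (horizontal axis) of Stat3 and Pim1 with all 8 arrays (black) and with each array left out in turn (blue, vertical axis). The Stat3 difference between genotypes in MEP cells ranges from -0.86 with WT MEP 2 left out to -0.22 with WT MEP 1 left out, while that of Pim1 over both cell types stays between -0.40 and -0.29.

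The intervals give the sizes that these arrays leave in view. For the genotype comparison the 95% intervals of the 10 genes reached from -0.63 to 0.61 in KLS cells and from -1.10 to 0.45 in MEP cells. The narrowest, that of Stat5a, spanned 0.59 in each. Differences between arrays of one group were largest for Stat3 in WT MEP (SD 0.45) and TG KLS cells (SD 0.35).

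Other genes of the pathway were taken from lists by role. Of the other JAK kinases and STAT factors 5 of 7 were measured, and 1 was called between the cell types, where 1.60% of all genes were. Stat4, which transmits IL-12 signals in lymphocytes, was at 7.52 and 7.59 in WT KLS, 7.81 and 7.30 in TG KLS, 7.15 and 5.25 in WT MEP and 5.15 and 5.59 in TG MEP cells. Every KLS array was above every MEP array, and WT MEP 1 was close to the KLS arrays while the other MEP arrays were well below. The difference was 1.77 ± 0.35 (SE; limma adjusted p = 0.0487), and it was 2.25 without WT MEP 1 (adjusted p = 0.00121) and 1.30 without WT MEP 2 (adjusted p = 0.0292). The lymphoid markers, which were high on the same WT MEP 1 array, were on average at 7.02 to 7.48 in KLS cells, and their part in the Stat4 values was not tested. Jak1, Tyk2, Stat2 and Stat6 differed between the cell types by -0.022 to 0.16. By genotype 0 of the 5 were called, and those with the smallest p were Stat6 in KLS cells, with a change of -0.15 ± 0.15, and Stat4 in MEP cells, with -0.83 ± 0.50. The Stat4 change rests on WT MEP 1 and was 0.12 without it.

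Among receptors that use JAK kinases 20 of 24 were measured, and 3 were called, all higher in KLS cells (1.60% of all genes were called). They were Il6st, the shared signalling chain of the IL-6 family, at 1.61 ± 0.28 (SE), the G-CSF receptor Csf3r at 1.16 ± 0.16 and the interferon receptor chain Ifnar2 at 0.64 ± 0.13 (limma adjusted p = 0.0362, 0.0160 and 0.0487). Il6st ran from 7.74 to 8.77 on the KLS arrays and from 6.02 to 7.54 on the MEP arrays, highest among them on WT MEP 1. The median of the 20 was 0.28 toward KLS cells, beside 0.013 over all genes. For TG minus WT in MEP cells it was -0.33, where 17 of 20 lay below 0 (52.0% of all genes) and 0 were called. On WT MEP 1 the mean of these 20 was 6.94, against at most 6.56 on the other MEP arrays. Without that array the median of the MEP change was -0.14, beside -0.044 over all genes. Again 17 of 20 lay below 0 there (61.0% of all genes). By genotype the smallest p were those of the IL-10 receptor chain Il10ra in KLS cells, with a change of -0.31 ± 0.26, and of the LIF receptor Lifr in MEP cells, with -0.42 ± 0.14 and -0.33 without WT MEP 1, neither of them called. Lifr was at 5.26 and 5.09 in WT MEP and 4.78 and 4.74 in TG MEP cells, low levels on this scale.

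Of 16 other inhibitors 0 were called in any comparison by limma with all 8 arrays. At an unadjusted p under 0.05 there were 4 between the cell types (14.3% of all genes). By genotype there were 1 in KLS cells (2.51%) and 0 in MEP cells (3.71%). The smallest p between the cell types was that of Ptprc, the phosphatase CD45, with a difference of 1.07 ± 0.27 (limma adjusted p = 0.0919). It was at 10.18 on WT MEP 1 and at 8.55 to 8.72 on the other MEP arrays, and without WT MEP 1 its difference was 1.44. By genotype in KLS cells it was that of Ptpn2, a phosphatase that acts on JAK and STAT proteins, at 7.66 and 7.88 in WT and 8.17 and 8.28 in TG, a change of 0.46 ± 0.14 (limma adjusted p = 1.00). Averaging the probe sets of Ptpn2 gave -0.00067 instead. In MEP cells it was again that of Ptprc, with a change of -0.86 ± 0.38 that was -0.13 without WT MEP 1.

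Of 17 measured other STAT target genes 2 were called between the cell types, where 1.60% of all genes were. The survival gene Bcl2 was higher in KLS cells by 1.36 ± 0.23 (limma adjusted p = 0.0359), and the transferrin receptor Tfrc was lower, at -0.56 ± 0.10 (adjusted p = 0.0407). Tfrc is also among the erythroid markers and Csf3r among the granulocyte and monocyte markers, so these calls are not separate from the marker counts. By genotype 0 of 17 were called by limma. At an unadjusted p under 0.05 there was 1 in KLS cells (2.51% of all genes), in MEP cells (3.71%) and over both (3.26%). That gene was Bcl2l1, which encodes the survival protein Bcl-xL. It was at 8.03 and 8.33 in WT KLS, 7.41 and 7.71 in TG KLS, 8.64 and 7.95 in WT MEP and 7.16 and 7.22 in TG MEP cells, so that TG arrays were below WT arrays in each cell type. TG minus WT was -0.62 ± 0.23 in KLS cells, -1.11 ± 0.23 in MEP cells and -0.87 ± 0.16 over both (SE; limma adjusted p = 1.00, 1.00 and 0.999). Leaving out WT MEP 1 gave -0.76 in MEP cells and -0.69 over both. The erythroid markers Alas2 and Slc4a1 also lay lower in TG without overlap in each cell type. Over both cell types they changed by -0.85 ± 0.17 and -1.23 ± 0.25 (SE), neither of them called. Of the 14 measured erythroid markers 10 lay below 0 over both and 4 above. Their part in the Bcl2l1 values was not tested. Of the 6 calls between the cell types in these lists all 6 passed without WT MEP 1. Without TG KLS 1, TG MEP 1 or TG MEP 2 none of the 6 passed (limma adjusted p from 0.0686 to 0.175), without WT KLS 1 only Csf3r did, and with each array centred on its median 1 did.

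**Figure D4:**
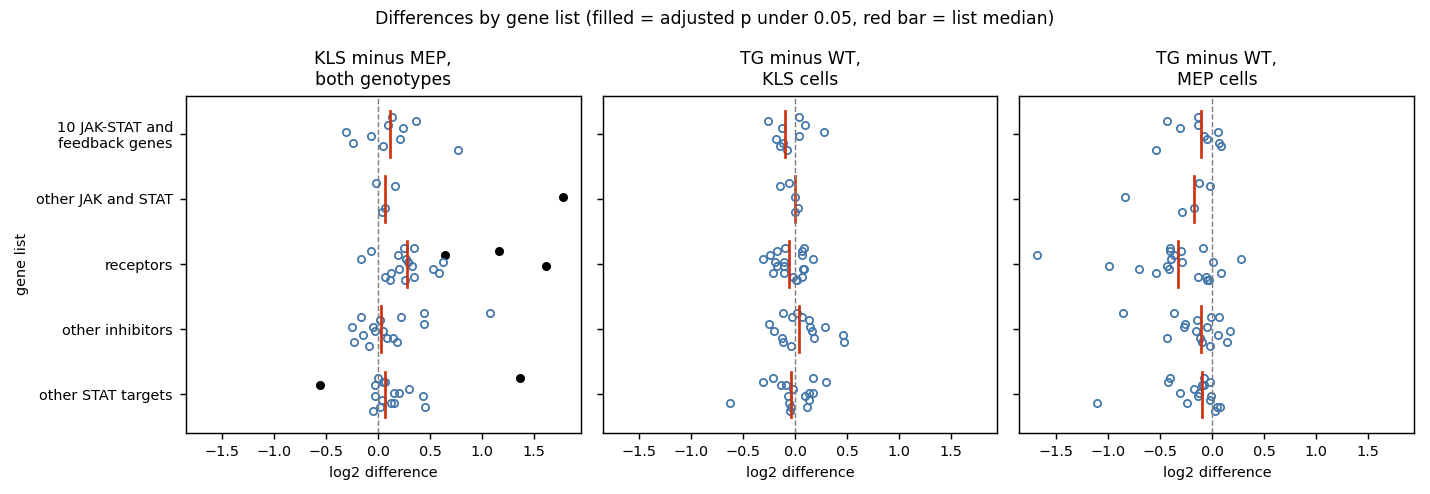
Log2 differences (horizontal axis) of the 10 genes and of the 4 wider pathway lists (vertical axis) in 3 comparisons, with a point per gene, filled where adjusted p is under 0.05, and a red bar at the list median. The 6 filled points, Stat4, Il6st, Csf3r, Ifnar2, Bcl2 and Tfrc, are all between the cell types, and no point is filled by genotype.

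Genes with the most similar pattern over the 8 arrays were taken for the 3 genes with the widest range of group means, as a description, since the arrays fall into KLS and MEP cells and many genes follow that division. For Stat3 they were Tspan14, Ly9 and Arhgdib, with Pearson r of 0.99 each. For Pim1 they were Sorcs2, Rnu3a and Itpr3, with r of 0.97 each, and for Jak2 they were Vps13a, Ireb2 and Hccs, with r of 0.98 to 0.99. The genes were picked by r over these same 8 arrays, so values within 4 of them are not an independent check. Within the 4 MEP arrays alone the Stat3 values were 0.99 to 1.00, and within the 4 KLS arrays 0.91 to 0.97. The Pim1 values were 0.98 to 1.00 within the MEP arrays and 0.74 to 0.98 within the KLS arrays, lowest for Itpr3. Those of Jak2 were 0.80 to 0.95 within the MEP arrays, lowest for Vps13a, and 0.98 to 1.00 within the KLS arrays.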

How the data were processed

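RNA of 8 pooled preparations was measured on 8 Affymetrix arrays. The authors deposited log2 probe set values, 35556 per array, from 1.71 to 14.0, a range that fits a log2 scale. Per the submitters' processing notes the software was Affymetrix Expression Console, and how it summarized and normalized the probes is unknown here. Array medians spanned 0.106, above the tolerance of 0.1, so values were quantile normalized. The 21789 probe sets with 1 gene symbol were kept, symbols were looked up by Entrez identifier, and the brightest probe set stood for each of 19938 genes. No filter on dim genes was applied, and the deposited values carry no detection calls.

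A mean per group was fitted with limma 3.58.1 in R 4.3.3 over all 8 arrays (4 residual and 4.82 prior degrees of freedom), two-sided, with Benjamini-Hochberg adjustment over all genes. Groups and replicate numbers came from the sample titles, and p-values measure the spread between preparations. The procedure was tested on simulated data for the difference between KLS and MEP cells only. The genotype comparisons and the interaction were not covered by it. All 10 members are named. Of each wider list and comparison, up to 4 called genes are named, or the gene with the smallest p where none passed. The members, lists and tests were chosen with earlier results of these data known. Alternatives were other scalings, a filter on dim genes, other handling of probe sets, other variance models and weights per array. Others were a block for the replicate number, 1 cell type alone, each array left out and an adjusted p under 0.10. A replicate block with the TG MEP numbers crossed was added after seeing the data.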

Additional observations from a re-analysis of the deposited data

Results flagged for a closer look

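Among the 20 sets formed by the 10 genes in the 4 KLS or the 4 MEP arrays, 2 held an array whose gap to its nearest neighbour took up an unusually large part of the range by Dixon's 95% criterion, which chance meets in about 1 in 20 sets. Jak2 was at 9.25 on WT MEP 2 and at 9.36 to 9.38 on the other MEP arrays. Socs1 was at 6.49 on WT MEP 1 and at 6.66 to 6.68 on the other MEP arrays.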

How the results depend on the processing

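With 2 arrays per group and no detection calls, small differences of dim genes are the least secure. All 10 genes passed the filter on dim genes, and no gene of the 10 was called by genotype under any alternative. Between KLS and MEP cells 1 of the 10, Stat3, was called with the replicate block (adjusted p = 0.0432), at an adjusted p under 0.10, and without WT MEP 1, so with arrays left out the count ran from 0 to 1. Over all genes that comparison had 319 calls (240 higher and 79 lower in KLS cells). It had 123 with each array centred on its median (79 higher, 44 lower), 179 with all probe sets singly, 562 with the replicate block, 780 at an adjusted p under 0.10, and 1 to 738 with an array left out (1 without TG MEP 1, 738 without WT MEP 1). By genotype 0 genes were called, but 1 over both cell types with the replicate block. With an array left out the counts ran from 0 to 144 in MEP cells, 0 to 67 over both and 0 to 10 for the interaction, the highest in each case without WT MEP 2.

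Sign changes were found for small differences and also for larger ones of Stat4 and Ptpn2, and the cause was not tested. Centred on the median, the change was 0.0063 for Stat3 in KLS cells, -0.046 for Jak2 in MEP cells and 0.10 for the Stat5a interaction. As deposited it was -0.0038 for Cish in KLS cells, -0.019 for Jak2 in MEP cells and 0.046 for the Stat5a interaction. With probe sets averaged, Socs2 between the cell types came to 0.046, Socs3 over both to 0.027, and Ptpn2 to -0.00067 in KLS cells and -0.033 over both. With an array left out, the ranges between the cell types were -0.15 to 0.014 for Socs2 and -0.0043 to 0.18 for Socs3. In KLS cells they were -0.030 to 0.10 for Cish, -0.072 to 0.25 for Socs3 and -0.32 to 0.17 for Stat3. In MEP cells they were -0.084 to 0.23 for Epor, -0.0022 to 0.12 for Jak2, -0.015 to 0.18 for Socs1, -0.24 to 0.087 for Socs2, -0.33 to 0.050 for Socs3 and -1.79 to 0.12 for Stat4. Over both they were -0.10 to 1.0e-05 for Cish, -0.10 to 0.056 for Epor, -0.080 to 0.016 for Socs1, -0.10 to 0.062 for Socs2, -0.12 to 0.070 for Socs3 and -0.89 to 0.058 for Stat4. For the interaction they were -0.050 to 0.28 for Socs2 and -0.12 to 1.79 for Stat4.

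No source used here says that a replicate number marks a shared batch, so the main analysis has no block, and whether the numbers pair the arrays is not settled. Deviations of same-numbered arrays correlated across genes at 0.38 (WT KLS with TG KLS), 0.18 (WT KLS with WT MEP) and 0.35 (TG KLS with WT MEP), and TG MEP correlated with these groups at -0.17 (WT KLS), -0.28 (TG KLS) and -0.21 (WT MEP). With the TG MEP numbers crossed in the replicate block, a choice made after seeing the data, 1040 genes and 1 of the 10 were called between the cell types.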
